A study of Mus musculus with 12 samples.

Results

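The PPAR-alpha targets of fatty acid oxidation were followed here in the livers of mice with and without an acetaminophen (APAP) overdose. The set holds 8 genes, Cpt1a, Ehhadh, Hadha, Cyp4a10, Cyp4a14, Acot1, Fgf21 and Pdk4, which were taken by symbol and matched to their Ensembl gene identifiers, out of 24187 genes in the count table. All 8 passed the filter on low counts, which kept 22581 genes. Liver RNA from C57BL/6J mice was sequenced in bulk after removal of ribosomal RNA. The control group was 3 untreated mice. The APAP vehicle group was 5 mice given APAP, labelled as 350 mg/kg, and then PBS, and the APAP hAAM group was 4 mice given the same APAP dose and then hAAMs, cryopreserved human macrophages grown from CD14+ blood monocytes with CSF1 and activated with IL-4 and IL-13. By the study's methods, mice were 10 to 12 weeks old, APAP was injected after a 12 h fast, food was returned 20 min later, and cells or vehicle were given into a vein 16 h after APAP. The methods name a collection at 36 h and a figure legend a collection at 32 h, and a severe form of the model received 500 mg/kg, so that neither the dose nor the time of collection of the sequenced livers is certain. The labels do not say whether the untreated mice were fasted. Fasting itself acts on these genes, and fasting, feeding and time of day cannot be told apart from the injury in a comparison with control.

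PPAR-alpha is a nuclear receptor of hepatocytes that binds fatty acids, pairs with RXR and switches on genes that break fatty acids down. It is most active when fat reaches the liver from adipose tissue, as in fasting. Long-chain fatty acids enter mitochondria through the carnitine shuttle and are shortened there by beta-oxidation, peroxisomes shorten very long and dicarboxylic chains, and cytochromes P450 of family 4A oxidise the far end of the chain in the endoplasmic reticulum (omega oxidation). Cpt1a (carnitine palmitoyltransferase 1A) is the gate of the carnitine shuttle. Hadha encodes the alpha subunit of the mitochondrial trifunctional protein, and Ehhadh the bifunctional enzyme of peroxisomes. Cyp4a10 and Cyp4a14 are omega hydroxylases. Acot1 releases free fatty acid from acyl-CoA in the cytosol, Fgf21 is a hormone that the liver secretes, and Pdk4 is a kinase that shuts down pyruvate dehydrogenase and so spares glucose.

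On GRCm38, Cyp4a14 (ENSMUSG00000028715, chr4:115486200-115496142, minus strand) and Cyp4a10 (ENSMUSG00000066072, chr4:115518264-115533649, plus strand) lie 22121 bases apart, with Cyp4a31 and Cyp4a32 further along in the same cluster. Cpt1a (ENSMUSG00000024900) lies at chr19:3322334-3385733, Ehhadh (ENSMUSG00000022853) at chr16:21761287-21787807 and Hadha (ENSMUSG00000025745) at chr5:30118304-30155162. Acot1 (ENSMUSG00000072949) lies at chr12:84009490-84018371, Fgf21 (ENSMUSG00000030827) at chr7:45613886-45615490 and Pdk4 (ENSMUSG00000019577) at chr6:5483351-5496309. Hadha and Hadhb, the gene of the beta subunit of the same enzyme, point away from each other with 85 bases between them. Members share transcript sequence with near relatives to unequal extents. Of all 50-base stretches in the annotated transcripts, 29.8% in Cyp4a10 also occurred in another gene, Cyp4a31 or Cyp4a32. In Acot1 the share was 19.2%, with 13.6% shared with Acot2, 5.20% with Acot5, 4.40% with Acot3, 2.44% with Acot6 and 2.19% with Acot4, and in the other 6 members it was at most 1.4%, with 0.235% in Cyp4a14. Counts of Cyp4a10 and Acot1 are therefore uncertain to the extent that reads were divided among relatives. Hadha and Ehhadh overlap a gene on the other strand (Garem2 and the small nuclear RNA gene Gm24898), and whether the counting used strand is not given in the sources used here.

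RefSeq promoters on GRCm38.p6, from 250 bases before to 50 bases after the start of the gene, were at hand for 6 of the 8 members, all but Cyp4a10 and Cyp4a14. The RefSeq start can differ from the outer end of the GENCODE gene given above, and lies 967 bases further in for Cpt1a and 182 bases further in for Hadha. PPAR-alpha with RXR binds a direct repeat, AGGTCANAGGTCA, whose half-site is AGGTCA. With up to 3 mismatches on either strand, the repeat occurred in 24.6% of all 32851 promoters of this length and in 0 of the 6 members. An exact half-site, searched on both strands, occurred in 16.3% of all promoters and, among the members, in Cpt1a alone, on the minus strand from base -94 to base -89. A match in these letters is a description of the window and not a binding site, and the lack of one says nothing about the receptor, which is also known to act from sites in introns and far upstream. The promoter of Cpt1a is shown for that half-site, in capitals as it reads on the printed strand, and those of Ehhadh and Hadha are shown as the pair of members with promoters that followed each other most closely across the livers. The windows are chr19:3323051-3323350 on the plus strand, chr16:21787785-21788084 on the minus strand and chr5:30154931-30155230 on the minus strand, each written 5′ to 3′.
Cpt1a: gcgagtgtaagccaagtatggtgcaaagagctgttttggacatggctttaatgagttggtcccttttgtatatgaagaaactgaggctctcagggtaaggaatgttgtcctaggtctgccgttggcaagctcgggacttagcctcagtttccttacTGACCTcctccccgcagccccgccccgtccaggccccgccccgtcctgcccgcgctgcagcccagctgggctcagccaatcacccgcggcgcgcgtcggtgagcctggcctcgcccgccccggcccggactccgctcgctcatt
Ehhadh: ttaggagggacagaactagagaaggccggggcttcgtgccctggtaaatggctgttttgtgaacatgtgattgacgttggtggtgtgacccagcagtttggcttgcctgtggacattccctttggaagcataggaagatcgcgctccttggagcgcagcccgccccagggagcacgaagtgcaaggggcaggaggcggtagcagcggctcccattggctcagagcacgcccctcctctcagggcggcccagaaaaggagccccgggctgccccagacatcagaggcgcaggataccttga
Hadha: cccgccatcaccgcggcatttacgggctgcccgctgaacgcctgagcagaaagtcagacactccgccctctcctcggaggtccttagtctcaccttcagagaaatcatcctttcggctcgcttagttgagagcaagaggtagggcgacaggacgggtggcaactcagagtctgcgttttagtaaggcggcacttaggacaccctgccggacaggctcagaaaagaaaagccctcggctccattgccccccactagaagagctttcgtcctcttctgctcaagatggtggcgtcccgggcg
The GC content of these 3 windows was 62.3%, 60.7% and 58.7%, above the median of 52.7% over all promoters.

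Total counts ranged from 60870399 to 74056505 in control livers, from 50859599 to 61826952 in APAP vehicle livers and from 47391650 to 55379420 in APAP hAAM livers. APAP vehicle replicate 3 and APAP hAAM replicate 4 stood unusually close to each other, although their labels put them in different groups. Over 15804 genes with a mean of at least 50 counts, they differed by 1.19 times the counting noise, against 2.37 to 4.97 times in the other 35 pairs of injured livers. They were not the same within counting noise for every member, since Cyp4a14 differed between them by 7.66 counting errors. Both were kept as separate samples, and fold changes of the members are also given without them. Levels are given as CPM, a gene's counts per 1000000 counts of its library after TMM scaling, which adjusts for composition. On that scale Cyp4a14 stood at 838.2 CPM in APAP vehicle replicate 3 and 795.5 CPM in APAP hAAM replicate 4. At counts as high as these, a small difference in level makes many counting errors. Defining hepatocyte genes such as Alb and Ttr were abundant in all 12 livers, with a summed level of the 10 hepatocyte markers from 113900 to 142700 CPM in control livers and from 109800 to 143700 CPM in injured livers. The 6 markers of pericentral hepatocytes, the cells that APAP damages, were all lower in APAP vehicle livers than in control livers. Their summed level was 3861 to 6218 CPM in control, 345.7 to 1445 CPM in APAP vehicle and 449.1 to 2820 CPM in APAP hAAM livers. In bulk tissue, fewer cells of a type and less RNA per cell cannot be told apart.

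Among the 8 members, the omega hydroxylases had the largest fitted differences between injured and control livers, with Cyp4a14 past the test in APAP vehicle livers, and their levels spread widely among injured livers. Cyp4a14 stood at 41.0, 25.4 and 11.7 CPM in control replicates 1 to 3. In APAP vehicle replicates 1 to 5 it stood at 103, 68.6, 838, 139 and 947 CPM, and in APAP hAAM replicates 1 to 4 at 47.6, 33.6, 222 and 795 CPM. All 5 APAP vehicle livers were above all 3 control livers, while APAP hAAM replicate 2 lay within the control range. Between control and APAP vehicle livers, Cyp4a14 rose by a log2 fold change of 4.01 (SE 1.30, 16.1-fold), with an edgeR FDR of 0.0352. The log2 fold change of APAP hAAM livers against control was 3.40 (SE 1.27), with an edgeR FDR of 0.0775, which missed the threshold of 0.05, and a DESeq2 adjusted p of 0.0187. Without the near-identical livers, the log2 fold change was 3.60 (edgeR FDR 0.0324) in APAP vehicle livers and 1.96 (edgeR FDR 0.216) in APAP hAAM livers, and it was also 1.96 in the latter without hAAM replicate 4 alone. The call in APAP vehicle livers depended on few samples. It was lost without control replicate 1, 2 or 3 (edgeR FDR 0.0717, 0.0969 and 0.116) and without APAP vehicle replicate 3 or 5 (edgeR FDR 0.0536 and 0.0634), and the log2 fold change stayed between 3.47 and 4.50 when any 1 liver was left out.

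Cyp4a10 followed Cyp4a14. It stood at 31.6, 34.2 and 26.7 CPM in control livers, at 55.8, 45.7, 310, 97.5 and 307 CPM in APAP vehicle livers and at 38.4, 25.7, 129 and 299 CPM in APAP hAAM livers. The 3 control livers were within 1.28-fold of each other, whereas the APAP vehicle livers spanned 6.79-fold and the APAP hAAM livers 11.6-fold. As for Cyp4a14, the 5 APAP vehicle livers did not overlap the control livers, and the APAP hAAM livers did. The log2 fold change against control was 2.40 (SE 0.88) in APAP vehicle livers, with an edgeR FDR of 0.0569 and a DESeq2 adjusted p of 0.0182. For APAP hAAM livers it was 2.00 (SE 0.88), with an edgeR FDR of 0.127 and a DESeq2 adjusted p of 0.0836. The difference in APAP vehicle livers passed without APAP vehicle replicate 2, APAP hAAM replicate 2 or APAP hAAM replicate 4 (edgeR FDR 0.0438, 0.0409 and 0.0358). The difference in APAP hAAM livers was 1.06 without APAP hAAM replicate 4. Without the near-identical livers it was 2.04 in APAP vehicle livers (edgeR FDR 0.0590, DESeq2 adjusted p 0.0310) and 1.07 in APAP hAAM livers (edgeR FDR 0.338). The close relative Cyp4a31, which shares sequence with Cyp4a10, ran from 3.55 to 5.66 CPM in control livers and reached 60.3 CPM in APAP vehicle replicate 5 (log2 fold change 2.44, SE 0.92, edgeR FDR 0.0624, DESeq2 adjusted p 0.0212). Cyp4a32, which shares 24.5% of the stretches of Cyp4a10 beside 15.0% for Cyp4a31, ran from 12.8 to 14.7 CPM in control livers and from 5.03 to 42.9 CPM in injured livers, with log2 fold changes of 0.59 and 0.36 (edgeR FDR 0.538 and 0.745). Other genes of the subfamily went the other way. Cyp4a12a fell by 1.67 on the log2 scale in APAP vehicle livers and by 1.56 in APAP hAAM livers (edgeR FDR 0.0177 and 0.0416), and Cyp4a12b fell by 1.92 and 1.66 (edgeR FDR 0.0150 and 0.0486). Both were called as lower with library size alone and with RLE scaling as well. These relatives were named after their values were seen.

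**Figure D1:**
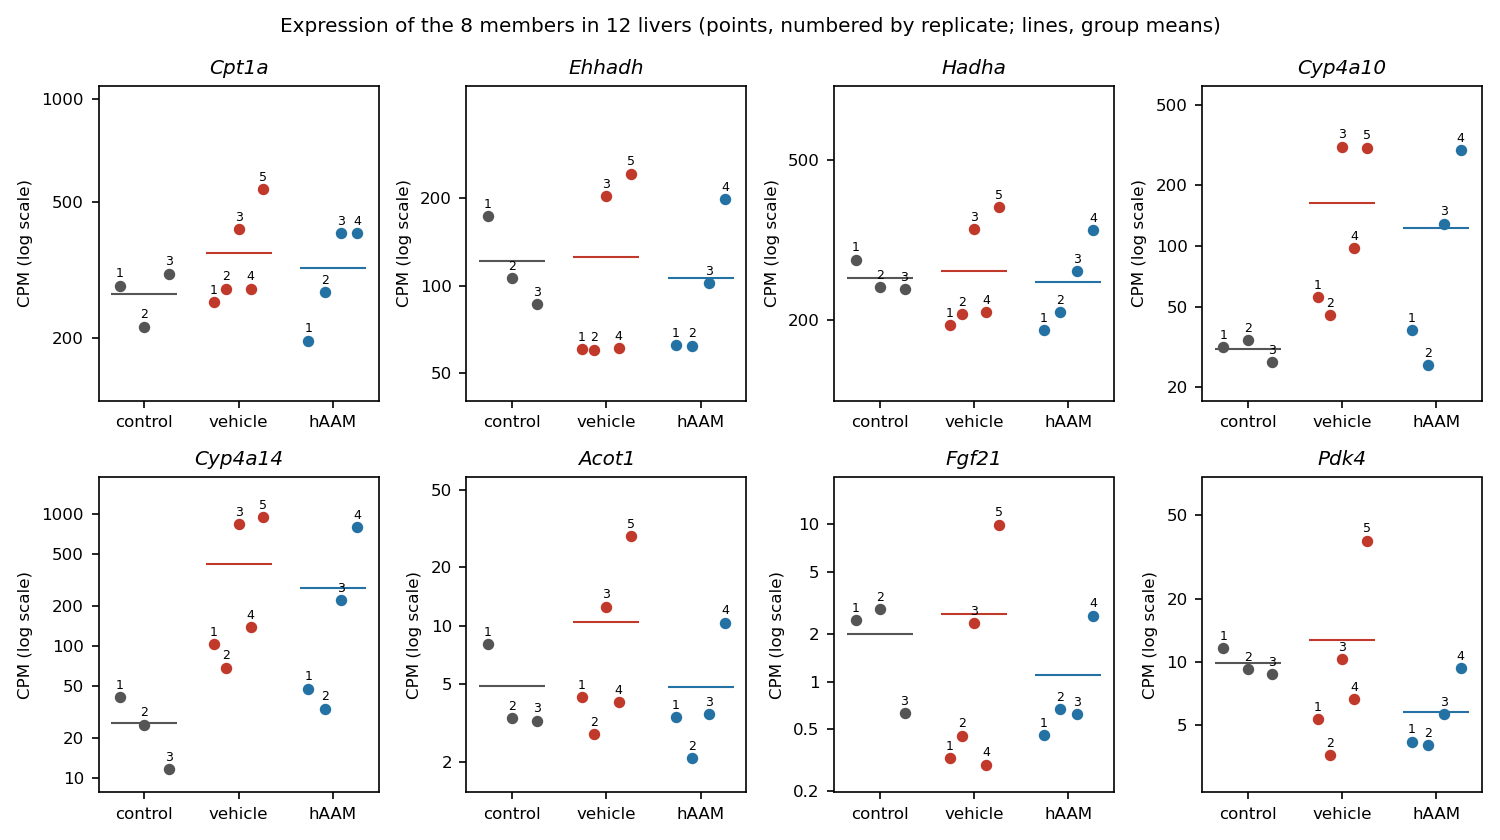
Expression of each member in CPM (log axis), 1 point per liver, numbered by replicate, with a line at the mean of each group (control n = 3, APAP vehicle n = 5, APAP hAAM n = 4). For Cyp4a10 and Cyp4a14 all 5 APAP vehicle livers lie above the control livers, and vehicle replicates 3 and 5 and hAAM replicate 4 take the top 3 places among the injured livers in 7 of 8 panels.

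The gate of the carnitine shuttle, Cpt1a, was not called by edgeR in either injured group. It stood at 285, 216 and 308 CPM in control livers, at 254, 279, 415, 279 and 545 CPM in APAP vehicle livers and at 197, 272, 405 and 404 CPM in APAP hAAM livers. The groups overlapped, with 2 of 5 and 2 of 4 injured livers above all control livers. The log2 fold change against control was 0.39 (95% interval -0.24 to 1.03, edgeR FDR 0.330) in APAP vehicle livers and 0.24 (-0.41 to 0.90, edgeR FDR 0.602) in APAP hAAM livers. With scaling by library size alone it was 0.74 in APAP vehicle livers and passed (edgeR FDR 0.0425). Hadha, which acts inside the mitochondrion, stood at 282, 241 and 239 CPM in control livers, at 194, 207, 336, 209 and 381 CPM in APAP vehicle livers and at 189, 209, 265 and 334 CPM in APAP hAAM livers. In the APAP vehicle group, 3 livers lay below all control livers and 2 lay above them, so that the mean hardly differed (log2 fold change 0.06, 95% interval -0.47 to 0.60, edgeR FDR 0.871). The value for APAP hAAM livers was -0.03 (95% interval -0.59 to 0.53).

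Ehhadh, the peroxisomal member, split in the same way and by more. It stood at 173, 106 and 86.6 CPM in control livers, at 60.6, 60.3, 204, 61.2 and 243 CPM in APAP vehicle livers and at 62.4, 62.3, 102 and 198 CPM in APAP hAAM livers. In all, 5 injured livers lay between 60.3 and 62.4 CPM, below every control liver, and APAP vehicle replicates 3 and 5 and APAP hAAM replicate 4 lay above every control liver. The log2 fold change against control was 0.04 (95% interval -1.16 to 1.25) in APAP vehicle livers and -0.20 (-1.45 to 1.05) in APAP hAAM livers. These intervals are wide enough to hold changes of either sign beyond 2-fold. The sign in APAP vehicle livers turned without vehicle replicate 3 (-0.20) or vehicle replicate 5 (-0.34), and that of Hadha turned likewise (-0.04 and -0.10). For Ehhadh it also turned without control replicate 2 (-0.05) or control replicate 3 (-0.15). Against control, the sign in APAP hAAM livers turned without control replicate 1 for Ehhadh (0.15) and for Hadha (0.06), and for Hadha also without hAAM replicate 1 (0.09) or hAAM replicate 2 (0.05).

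The low members, Acot1, Pdk4 and Fgf21, depended most on APAP vehicle replicate 5. Acot1 stood at 8.06, 3.35 and 3.26 CPM in control livers, at 4.30, 2.79, 12.6, 4.07 and 28.8 CPM in APAP vehicle livers and at 3.39, 2.09, 3.52 and 10.4 CPM in APAP hAAM livers. Its log2 fold change against control was 1.11 (SE 0.77, edgeR FDR 0.302) in APAP vehicle livers and -0.01 (SE 0.79) in APAP hAAM livers. Without APAP vehicle replicate 5 the first of these was 0.28. The second turned positive without control replicate 1 (0.55) or without hAAM replicate 1, 2 or 3 (0.13, 0.24 and 0.11).

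Pdk4 stood at 11.6, 9.28 and 8.75 CPM in control livers, at 5.35, 3.60, 10.3, 6.68 and 37.8 CPM in APAP vehicle livers and at 4.18, 4.02, 5.67 and 9.35 CPM in APAP hAAM livers. In all, 6 of the 9 injured livers lay below every control liver, and only APAP vehicle replicate 5 lay above. The log2 fold change was 0.37 (95% interval -1.02 to 1.75) in APAP vehicle livers, and -0.61 when vehicle replicate 5 was left out (edgeR FDR 0.223). For APAP hAAM livers it was -0.77 (95% interval -2.21 to 0.67, edgeR FDR 0.440).

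Fgf21 was the member with the fewest counts, from 19 to 672 per liver. It stood at 2.46, 2.89 and 0.632 CPM in control livers, at 0.327, 0.453, 2.36, 0.296 and 9.94 CPM in APAP vehicle livers and at 0.454, 0.667, 0.620 and 2.63 CPM in APAP hAAM livers. The 33.6-fold span in APAP vehicle livers was the widest of any member in any group. The log2 fold change was 0.42 (95% interval -1.91 to 2.76) in APAP vehicle livers and -1.24 without vehicle replicate 5, neither of which passed the test (edgeR FDR 0.795 and 0.292). For APAP hAAM livers the log2 fold change was -0.87 (95% interval -3.34 to 1.60).

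Counted together, 1 of the 8 members (Cyp4a14) passed an edgeR FDR of 0.05 between APAP vehicle and control livers, where 29.8% of all genes tested passed, 15% as higher and 14.8% as lower. The APAP vehicle and control livers did not overlap in 2 of 8 members (Cyp4a10 and Cyp4a14), beside 34.8% of all genes. DESeq2 called both of these, beside 34% of all genes. In APAP hAAM livers against control, edgeR called 0 of 8 members, beside 20.7% of all genes, 10.7% as higher and 9.96% as lower. An unadjusted p under 0.05 was found for 2 members, beside 35.2% of all genes, and DESeq2 called 1, beside 25.8%. No member was free of overlap in that comparison, beside 28.5% of all genes. By each of these counts the share among the members was no higher than that among all genes. The median log2 fold change of the 8 members was 0.41 in APAP vehicle livers and -0.02 in APAP hAAM livers, beside 0.01 and 0.02 over all genes tested. Scaling by library size alone moved the median of all genes to 0.36 and 0.32 in these comparisons, and then 3 members were called in APAP vehicle livers, with Cpt1a as the third, all as higher. Under that scaling edgeR called 43.2% of all genes in APAP vehicle livers, 38.2% as higher and 4.92% as lower, and 32.5% in APAP hAAM livers, 29% as higher and 3.46% as lower. Without the near-identical livers, the 6 members other than the hydroxylases were still not called by edgeR against control. Their log2 fold changes in APAP vehicle livers were then 0.34 for Cpt1a, -0.03 for Hadha, -0.19 for Ehhadh, 1.04 for Acot1, 0.44 for Pdk4 and 0.47 for Fgf21. In APAP hAAM livers they were 0.12 for Cpt1a, -0.20 for Hadha, -0.69 for Ehhadh, -0.70 for Acot1, -1.09 for Pdk4 and -1.78 for Fgf21.

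The direct comparison asked whether hAAMs changed these genes in injured livers. All 8 members had a lower fitted level in APAP hAAM than in APAP vehicle livers, with a median log2 difference of -0.51 beside 0.00 over all genes, but no member passed the test. The calls were 0 by edgeR, 0 with an unadjusted p under 0.05 and 0 by DESeq2, and the groups overlapped in every member. Among all genes, 0% were called by edgeR, 5.02% had an unadjusted p under 0.05, 0.00443% (1 gene) were called by DESeq2 and 1.4% did not overlap. The smallest p among the members was that of Pdk4 (log2 difference -1.14, 95% interval -2.44 to 0.16, edgeR FDR 0.967). For Cyp4a14 the difference was -0.61 (95% interval -2.75 to 1.53) and for Cyp4a10 it was -0.41 (-1.99 to 1.18), so that neither a large fall nor a rise could be told from these livers. When any 1 liver was left out, the difference ran from -1.46 to -0.16 for Pdk4, from -2.05 to -0.06 for Cyp4a14, from -1.34 to -0.04 for Cyp4a10 and from -1.81 to -0.29 for Acot1. The values nearest 0 came without vehicle replicate 5, or without vehicle replicate 3 for Cyp4a10, and those farthest from 0 came without hAAM replicate 4. Intervals were narrower for Cpt1a (-0.73 to 0.43) and Hadha (-0.58 to 0.40). Without APAP vehicle replicate 5, the difference turned positive for Cpt1a (0.06), Ehhadh (0.14), Hadha (0.08) and Fgf21 (0.37). It also turned positive without hAAM replicate 1 for Cpt1a (0.03) and Hadha (0.02), and without vehicle replicate 3 for Hadha (0.01). Without the near-identical livers, the difference was -1.64 for Cyp4a14, -0.98 for Cyp4a10, -0.22 for Cpt1a, -0.17 for Hadha, -0.49 for Ehhadh, -1.74 for Acot1, -1.53 for Pdk4 and -2.25 for Fgf21, and 0 members were called.

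**Figure D2:**
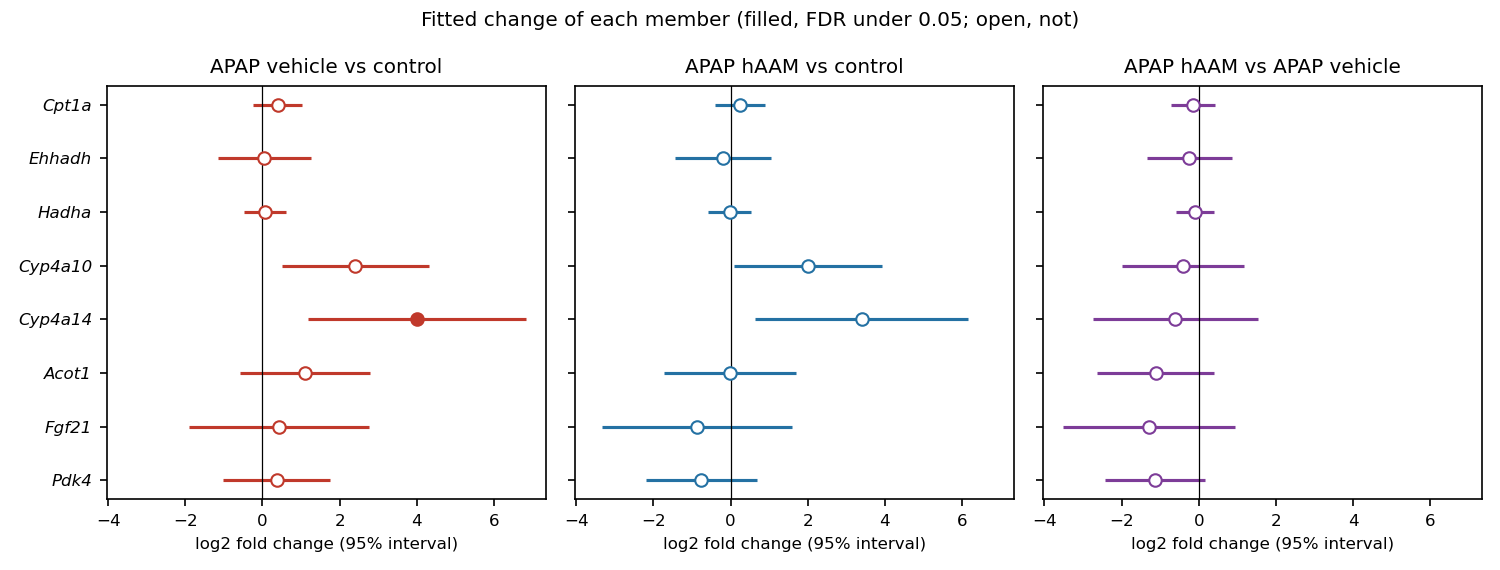
Fitted log2 fold change of each member (points) with its 95% interval (lines) in the 3 comparisons, filled where the edgeR FDR was under 0.05. Cyp4a14 in APAP vehicle against control livers is the filled point, at 4.01, and every interval of the comparison of APAP hAAM with APAP vehicle livers includes 0.

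Levels of different genes were set side by side per length, as FPKM, which divides the CPM by the length of the annotated exons. In control livers the order was Ehhadh (40.9 ± 15.2 FPKM, SD, n = 3), Cpt1a (35.3 ± 6.28), Hadha (29.1 ± 2.81), Cyp4a10 (14.6 ± 1.80), Cyp4a14 (10.0 ± 5.64), Pdk4 (2.82 ± 0.436), Fgf21 (2.10 ± 1.26) and Acot1 (1.25 ± 0.701). Among neighbours in this order, the ranges of the 3 livers overlapped from Ehhadh to Cpt1a to Hadha, between Cyp4a10 and Cyp4a14, between Pdk4 and Fgf21 and between Fgf21 and Acot1. They did not overlap between Hadha and Cyp4a10 or between Cyp4a14 and Pdk4. In APAP vehicle livers Cyp4a14 had the highest mean (161 ± 167 FPKM, SD, n = 5), followed by Cyp4a10 (77.4 ± 63.6), and the SD of each was about as large as its mean. Vehicle replicates 3 and 5 carried both means (Cyp4a14 at 322 and 364 FPKM). In vehicle replicate 2, Cyp4a14 (26.4 FPKM) and Cyp4a10 (21.7 FPKM) lay below Cpt1a (36.5 FPKM). In vehicle replicate 1, Cyp4a10 (26.45 FPKM) but not Cyp4a14 (39.7 FPKM) lay below Cpt1a (33.3 FPKM). In vehicle replicate 4 both lay above it. In APAP hAAM livers the mean was 106 ± 138 FPKM for Cyp4a14 and 58.4 ± 59.8 FPKM for Cyp4a10 (SD, n = 4), and both means rest on hAAM replicates 3 and 4. In hAAM replicates 1 and 2, Cyp4a14 (18.3 and 12.9 FPKM) and Cyp4a10 (18.2 and 12.2 FPKM) lay below Cpt1a (25.7 and 35.6 FPKM), Hadha (21.7 and 24.0 FPKM) and Ehhadh (20.9 and 20.9 FPKM).

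The same few livers held the highest levels of most members. APAP vehicle replicate 5 was the highest of all 12 livers in 7 of 8 members, and APAP vehicle replicate 3 in Cyp4a10. Among the 9 injured livers, vehicle replicates 3 and 5 were among the top 3 in all 8 members and hAAM replicate 4 in 7. On the log2 scale against the mean of the control livers, Cyp4a14 was 5.36 higher in vehicle replicate 5, 5.19 in vehicle replicate 3 and 5.11 in hAAM replicate 4, followed by 3.27 in hAAM replicate 3. In vehicle replicate 5 the low members also stood above the control mean, by 2.69 for Acot1, 2.56 for Fgf21 and 1.94 for Pdk4. In vehicle replicate 3 and hAAM replicate 4, Pdk4 was near the control mean, at 0.07 and -0.07. Because these 3 livers stood apart from the other 6 in Cyp4a14 (795 to 947 against 33.6 to 222 CPM) and include both near-identical livers, correlations between members over all 9 are not given as a result.

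**Figure D3:**
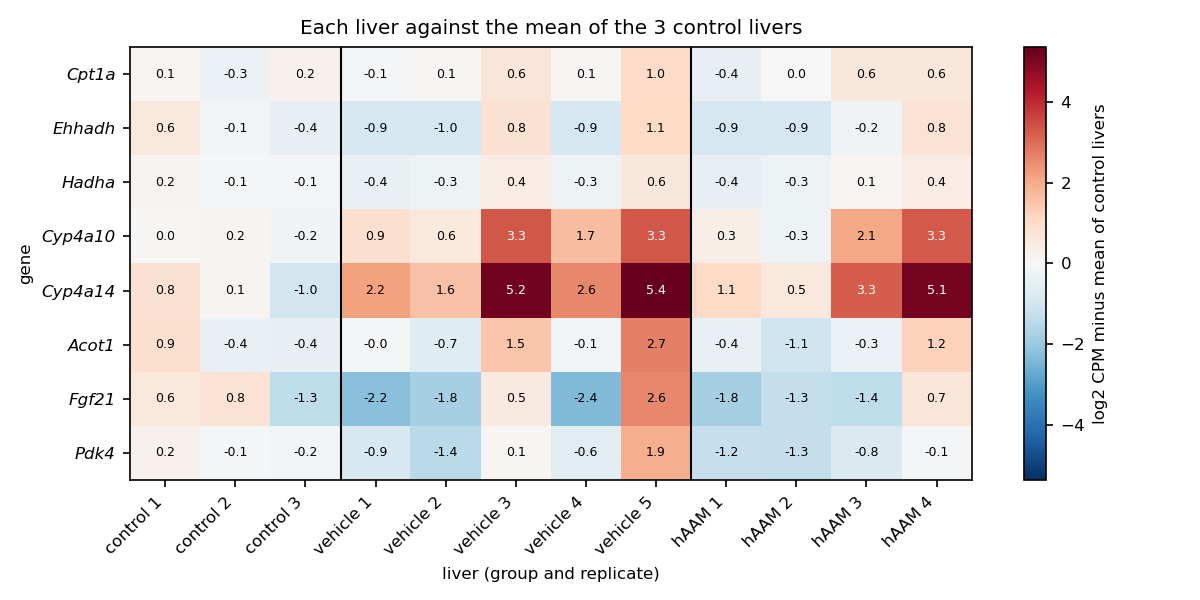
Log2 CPM of each member in each liver minus the mean of the 3 control livers (red higher, blue lower). The columns of vehicle replicates 3 and 5 and hAAM replicate 4 are red for Cyp4a10 and Cyp4a14, from 3.28 to 5.36. Fgf21 is blue in the other 6 injured livers, from -1.27 to -2.36, and also in control replicate 3, at -1.345.

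Values of other cell types were set beside this split. The summed level of the 7 macrophage markers was 210, 186 and 209 CPM in vehicle replicates 3 and 5 and hAAM replicate 4, and 243 to 330 CPM in the other 6 injured livers. The pericentral sum was 1445, 1019 and 1440 CPM in those 3 livers and 346 to 2820 CPM in the other 6. Of the adipocyte markers, Cidec, which hepatocytes also express in fatty liver, was at 9.89, 30.1 and 9.73 CPM in those 3 livers and 2.46 to 5.00 CPM in the other 6, while Adipoq and Plin1 did not pass the low-count filter. The 4 B cell markers summed to 1.78, 5.02 and 2.32 CPM in those 3 livers, with vehicle replicate 5 above all others, and to 1.39 to 3.25 CPM in the other 6. The 6 stellate cell markers summed to 380, 436 and 376 CPM against 350 to 975 CPM, and the 5 endothelial markers to 280, 347 and 274 CPM against 261 to 337 CPM. The 6 periportal markers summed to 4967, 3336 and 5017 CPM against 2814 to 7586 CPM. The part of these values in the split was not tested.

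Genes most like each member were named by the Pearson correlation of log2 CPM over the 12 livers, among 11166 or 11167 genes, as a description that carries the same split of livers. The nearest genes of the hydroxylases were each other (0.976), then Cyp4a31 for Cyp4a10 (0.973) and Mpc1-ps for Cyp4a14 (0.959), and Gstt2 for both (0.942 and 0.958). Hadha was most like Fabp2, an intestinal-type fatty acid binding protein (0.981), Gm13910 (0.979) and its partner subunit Hadhb (0.976). Ehhadh was most like Hadha (0.975), Fabp2 (0.955) and Gm13910 (0.945). Cpt1a was nearest to Hykk (0.957), Lgals4 (0.953) and Ech1, an enoyl-CoA isomerase of peroxisomes and mitochondria (0.951). Acot1 was nearest to Acadl, the long-chain acyl-CoA dehydrogenase (0.923), Cidec (0.913) and Pnpla7 (0.907). Fgf21 was nearest to Ehhadh and Crat (both 0.908) and Hsdl2 (0.895), and Pdk4 to Rab30 (0.908), Hsdl2 (0.893) and the lipid droplet protein Plin2 (0.893).

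Other genes of the same pathways give the setting, with members left out of each list. Among all genes tested, edgeR called 15% as higher and 14.8% as lower in APAP vehicle livers against control. In APAP hAAM livers these shares were 10.7% and 9.96%. The counts called in each pathway list are to be read beside these shares. Of 20 genes of mitochondrial beta-oxidation and the carnitine shuttle, 0 were higher and 1 was lower in APAP vehicle than in control livers (median log2 fold change -0.09). The lower gene was Cpt2, the inner membrane partner of Cpt1a, which fell in both injured groups (log2 fold change -0.49 and -0.52, edgeR FDR 0.0294 and 0.0394), and did not pass with scaling by library size alone. Acsl1, which activates long-chain fatty acids, and Etfa, an electron carrier, did not pass (-0.54 and -0.40 in APAP vehicle livers). Of 16 genes of peroxisomal oxidation, 2 were higher and 4 lower (median -0.43). The thiolase and lipid transfer gene Scp2 fell by 1.07 and 0.75 (edgeR FDR 0.00426 and 0.0409), and the fatty acid transporter Abcd3 by 0.73 in APAP vehicle livers (edgeR FDR 0.0312), with -0.63 in APAP hAAM livers (edgeR FDR 0.0868). With library size alone, the calls of Scp2 in APAP hAAM livers (-0.47, edgeR FDR 0.0705) and of Abcd3 in APAP vehicle livers (-0.39, edgeR FDR 0.160) were lost.

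Of the 9 other genes of omega oxidation, edgeR called 0 as higher and 5 as lower in APAP vehicle livers (median log2 fold change -0.78), and 0 and 3 in APAP hAAM livers. Among all genes the shares called as higher and lower were 15% and 14.8% in APAP vehicle livers. They were 10.7% and 9.96% in APAP hAAM livers. DESeq2 also called Cyp4a31 as higher in APAP vehicle livers (log2 fold change 2.44, DESeq2 adjusted p 0.0212). With scaling by library size alone, edgeR called 1 gene as higher in each injured group, beside 38.2% and 29% of all genes. In APAP vehicle livers this was Cyp4a31 (edgeR FDR 0.0258). In APAP hAAM livers it was another gene, and Cyp4a31 was not called (edgeR FDR 0.0871). Adh4, an alcohol dehydrogenase that acts on omega-hydroxy fatty acids, fell by 1.55 and 1.11 on the log2 scale (edgeR FDR 0.000117 and 0.00200). Cyp4f14 fell by 1.55 and Cyp4v3 by 0.75 in APAP vehicle livers (edgeR FDR 0.00283 and 0.00861), with -0.88 and -0.53 in APAP hAAM livers (edgeR FDR 0.0654 and 0.0661). The call of Cyp4v3 was lost with library size alone (-0.41, edgeR FDR 0.0638). Of the 8 acyl-CoA thioesterases tested, 3 were higher in APAP vehicle livers and 1 in APAP hAAM livers (medians 1.03 and 0.38). Acot2, the mitochondrial relative that shares sequence with Acot1, rose by 2.23 in APAP vehicle livers (SE 0.75, edgeR FDR 0.0419), with its highest level, 40.2 CPM, in vehicle replicate 5. The other APAP vehicle livers stood at 5.15 to 13.6 CPM for Acot2, and control livers at 2.14 to 4.36 CPM, so that much of the fold rests on that liver. Acot6 rose by 1.33 in APAP vehicle livers (edgeR FDR 0.0141), and Acot9, of mitochondria, rose by 1.48 and 1.22 in the injured groups (edgeR FDR 0.00273 and 0.0123). Of 6 genes of ketogenesis, the thiolase Acat1 was the 1 called in APAP vehicle livers, at 0.70 (edgeR FDR 0.0426), and the lactate and ketone carrier Slc16a1 the 1 called in APAP hAAM livers, at -0.66 (edgeR FDR 0.0426). With library size alone the call of Slc16a1 was lost (-0.36, edgeR FDR 0.234), and Acat1 was also called in APAP hAAM livers (0.86, edgeR FDR 0.0147). Bdh1, which makes beta-hydroxybutyrate, had a log2 fold change of 0.26 and 0.17.

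**Figure D4:**
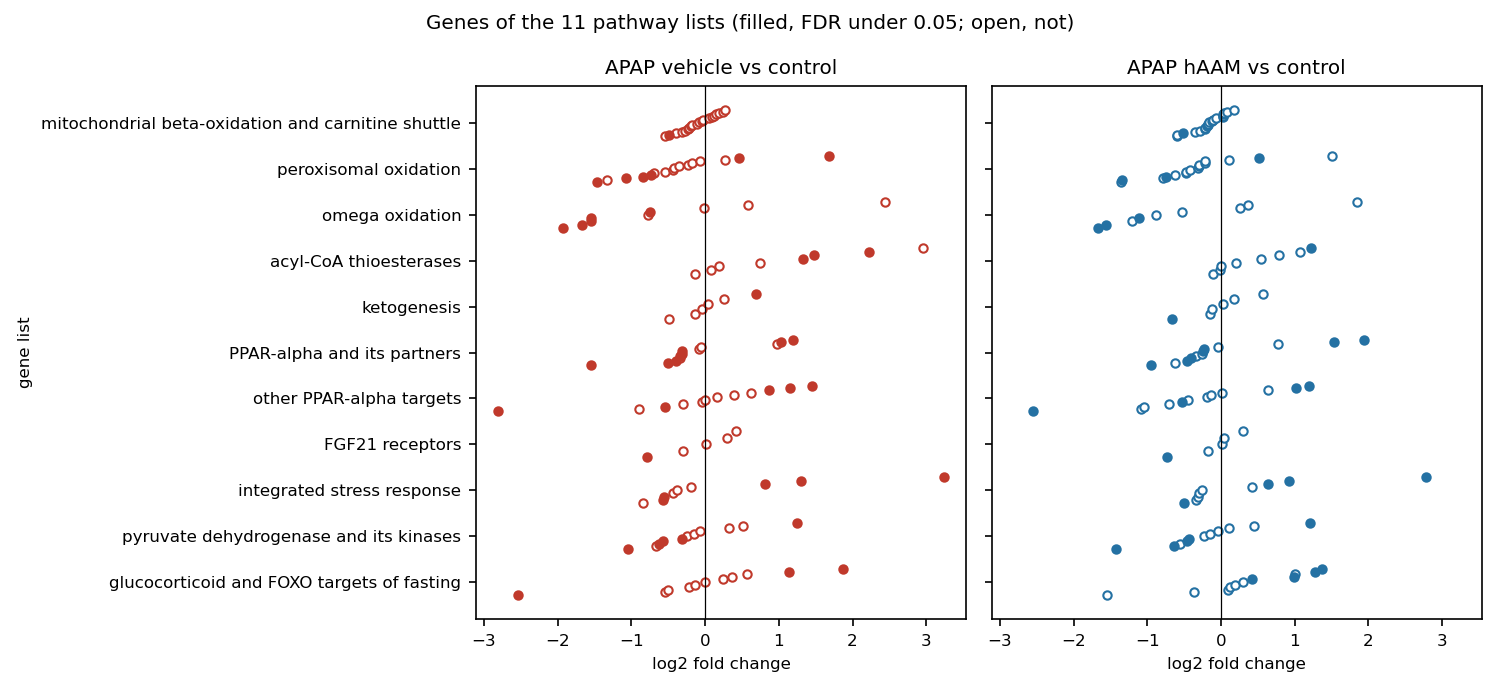
Log2 fold change of each tested gene (points) in the 11 pathway lists, in APAP vehicle and APAP hAAM livers against control, filled where the edgeR FDR was under 0.05. Genes of mitochondrial beta-oxidation sit near 0 with Cpt2 filled, and filled points of omega oxidation lie to the left, including Adh4 at -1.55 in APAP vehicle livers.

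Calls among PPAR-alpha and its partners depended on the scaling. Of 12 genes, edgeR called 2 as higher and 6 as lower in APAP vehicle livers, beside 15% and 14.8% of all genes (median -0.31). In APAP hAAM livers it called 2 as higher and 5 as lower, beside 10.7% and 9.96% of all genes (median -0.26). With scaling by library size alone, an alternative chosen for this list after seeing the data, the calls were 3 higher and 1 lower in APAP vehicle livers and 3 higher and 0 lower in APAP hAAM livers (medians 0.03 and 0.05). Among all genes, that scaling gave 38.2% as higher and 4.92% as lower in APAP vehicle livers, and 29% and 3.46% in APAP hAAM livers. Ppara itself was not called. It stood at 142, 136 and 182 CPM in control livers, 93.4 to 177 CPM in APAP vehicle livers and 76.1 to 135 CPM in APAP hAAM livers, with log2 fold changes of -0.34 and -0.62 (edgeR FDR 0.285 and 0.0908). Ppard, a related receptor, fell by 1.55 and 0.95 on the log2 scale (edgeR FDR 0.00108 and 0.0224), the second of which missed the threshold with library size alone (edgeR FDR 0.0575). The corepressor Ncor1 fell by 0.50 and 0.40 (edgeR FDR 0.00135 and 0.00891), with -0.16 and -0.10 under library size alone, where it was not called (edgeR FDR 0.165 and 0.428). The coactivator Ncoa1 fell by 0.32 and 0.22 (edgeR FDR 0.00299 and 0.0291), but its sign turned with scaling by library size alone (0.03 and 0.08). Among 12 other PPAR-alpha targets, 3 were higher and 2 lower in APAP vehicle livers, and 2 higher and 2 lower in APAP hAAM livers. The mitochondrial uncoupling protein gene Ucp2 rose by 1.15 and 1.02, and the fatty acid translocase Cd36 by 0.86 and 1.20, while Acacb, whose product makes the malonyl-CoA that inhibits Cpt1a, fell by 2.81 in APAP vehicle livers and fell by 2.55 in APAP hAAM livers (edgeR FDR 0.00170 and 0.00653). In vehicle replicate 3 and hAAM replicate 4, where most members were high, Ucp2 was at 37.7 and 38.7 CPM and Cd36 at 41.5 and 42.9 CPM. Injured livers reached 61.0 CPM for Ucp2 and 74.8 CPM for Cd36.

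Partners of Fgf21 and Pdk4 were listed as well. Beside their counts stand 15% of all genes as higher and 14.8% as lower in APAP vehicle livers, and 10.7% and 9.96% in APAP hAAM livers. Of 5 receptor genes for FGF21, Fgfr2 was the 1 called in each injured group, where it fell by 0.79 and 0.73 on the log2 scale (edgeR FDR 0.000617 and 0.00240), whereas Fgfr1 and Fgfr3 had log2 fold changes of 0.42 and -0.30 in APAP vehicle livers. With library size alone Fgfr1 was called there (0.78, edgeR FDR 0.0419) and the sign of Fgfr3 turned (0.05). Of 9 genes of the integrated stress response, which can also switch on Fgf21, 3 were higher and 2 lower in APAP vehicle livers, and 3 higher and 1 lower in APAP hAAM livers. Psat1, of serine synthesis, rose by 3.24 and 2.78, Sesn2 by 0.81 and 0.64, and Atf4, the transcription factor of the response, fell by 0.55 and 0.50, but was not called with library size alone (-0.21 and -0.20, edgeR FDR 0.0771 and 0.113). Of 11 genes of pyruvate dehydrogenase, its other kinases and phosphatases and the pyruvate carrier, 1 was higher and 4 lower in each injured group. The phosphatase Pdp2 fell by 1.05 and 1.42, and the complex subunits Pdhb by 0.57 and 0.46 and Dlat by 0.63 and 0.64. With library size alone, Pdhb was not called in either group (-0.23 and -0.17, edgeR FDR 0.0802 and 0.234), nor Dlat in APAP vehicle livers (-0.28, edgeR FDR 0.0603). Of 11 targets of glucocorticoids and FOXO in fasting, 2 were higher and 1 lower in APAP vehicle livers, and 4 higher and 0 lower in APAP hAAM livers. Fkbp5, a standard reporter of glucocorticoid action, rose by 1.87 and 1.38 (edgeR FDR 0.000260 and 0.00268), Per1, which is also a clock gene, rose by 1.14 and 1.28, and Irs2 fell by 2.54 in APAP vehicle livers (edgeR FDR 0.00892), with -1.54 in APAP hAAM livers (edgeR FDR 0.105). Between APAP hAAM and APAP vehicle livers, edgeR called 0 genes in all 11 lists, while DESeq2 also called 0.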

How the data were processed

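Bulk RNA-seq of 12 mouse livers was re-analysed. The table deposited by the authors holds unnormalized counts for each Ensembl gene, made from directional paired-end libraries of total RNA. The submitters' processing notes name FastQC, MultiQC 1.25, cutadapt 4.6, STAR 2.7.1a, DESeq2 1.38.3 and GRCm38, and the study's methods name summarizeOverlaps. Symbols, coordinates and exon lengths came from GENCODE on GRCm38, which named 24128 of 24187 genes.

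Groups came from the sample labels. Counts were analysed with R 4.3.3 and edgeR 4.0.16, using filterByExpr by group, TMM scaling and the quasi-likelihood test in 1 fit of all 12 livers, two-sided, with p adjusted by Benjamini-Hochberg over 22581 genes (FDR, threshold 0.05). The common biological coefficient of variation was 0.214. DESeq2 1.42.0 was an alternative. CPM used TMM-scaled library sizes, and log2 CPM a prior count of 2. The p-values set differences between groups against the spread between these livers. The tests treat all livers as independent, including the near-identical ones. Both tests were tested on simulated data.

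Genes were named by rule. The rule took the 8 members, the 3 genes of each pathway list with the smallest edgeR p in APAP vehicle against control, and the 3 genes most correlated with each member (mean log2 CPM of at least 2). A gene that the rule took is not reported here. Members and lists were chosen with earlier results of these data known. Ppara, Cyp4a12a, Cyp4a12b, Cyp4a31, Cyp4a32, Cidec and the cell type markers were named outside the rule, beside the results they touch. Alternatives changed the tool, scaling, filter, samples, FDR threshold and replicate block, and left out each liver in turn.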

Additional observations from a re-analysis of the deposited data

How the results depend on the processing

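In APAP vehicle against control livers, 1 member was called, which became 2 with DESeq2, 2 with only the 2 groups compared, 3 with library size alone, 0 at an FDR of 0.01, and, in a fit added after seeing the data, 2 with DESeq2 without the 2 near-identical livers. In APAP hAAM against control livers, 0 members were called, which became 1 with DESeq2 and 1 with library size alone. Between APAP hAAM and APAP vehicle livers, 0 were called under every alternative run. Leaving out each liver gave 0 to 2 called members in APAP vehicle and 0 to 0 in both other comparisons. The number of correlated pairs of members, 28 of 28 by Pearson's r and 20 by Spearman's rho over the 9 injured livers, was by Pearson's r 27 to 28 with 1 liver left out and 0 within the 6 livers with lower Cyp4a14, and none of these counts is read as a result, since those over 9 livers rest on livers that stand apart and the last on 6 livers chosen by a member's level.

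Replicate numbers were not taken to pair the livers. Of 10 same-number pairs, 3 had a correlation of deviations over 0.1 (range -0.458 to 0.385). Pairs with different numbers ran as widely, from -0.477 to 0.502, so that this check cannot decide whether the numbers pair livers. With the replicate block, 0 members and 4253 genes were called in APAP vehicle against control livers instead of 6719 genes, and Cyp4a14 was at 2.09. Log2 fold changes of members that were not called turned to -0.65 for Ehhadh, -0.20 for Hadha, -0.02 for Acot1, -1.70 for Fgf21 and -0.85 for Pdk4 with the block in APAP vehicle livers, and to 0.03 for Cpt1a, 0.11 for Ehhadh, 0.07 for Hadha and 0.25 for Fgf21 with the block between hAAM and vehicle. Without the 2 near-identical livers, Ehhadh turned to -0.19 (DESeq2 -0.21) and Hadha to -0.03 (DESeq2 -0.04) in APAP vehicle livers. With library size alone, Ehhadh turned to 0.08, Hadha to 0.26 and Acot1 to 0.27 in APAP hAAM livers. Replicate number 5 occurs only in the APAP vehicle group, so with the block APAP vehicle replicate 5 no longer bore on the fold changes. Other causes were not tested.

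With 1 liver left out, fold changes in APAP vehicle livers ran from -0.34 to 0.39 for Ehhadh, -0.10 to 0.16 for Hadha, -1.24 to 0.79 for Fgf21 and -0.61 to 0.61 for Pdk4. In APAP hAAM livers they ran from -0.69 to 0.15 for Ehhadh, -0.20 to 0.09 for Hadha and -0.70 to 0.55 for Acot1. Between treatments they ran from -0.29 to 0.06 for Cpt1a, -0.73 to 0.14 for Ehhadh, -0.26 to 0.08 for Hadha and -2.21 to 0.37 for Fgf21. Of 48 called results of example genes of the pathway lists, 25 kept their call and direction under every alternative run at the FDR of 0.05, and 32 did so under both scalings. The count of all genes called went from 6719 to 3183 at an FDR of 0.01 in APAP vehicle livers, and in APAP hAAM livers from 4666 to 1543 at that FDR, 7340 with library size alone, 2729 with only the 2 groups compared, 2959 with the block and 2419 to 5456 with 1 liver left out.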
